A study of Mus musculus with 8 samples.

Results

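The glucocorticoid system of the pituitary was described through 9 genes, namely the receptors Nr3c1 and Nr3c2, the corticosterone-converting enzymes Hsd11b1 and Hsd11b2, and the hormone-responsive genes Fkbp5, Tsc22d3, Sgk1, Zbtb16 and Klf9. The genes were taken by symbol from the 49585 rows that each library lists, and all 9 were found on 1 row each. The data came from bulk mRNA sequencing of whole pituitary from wild-type C57BL/6 mice, 4 libraries from young animals of 2 to 3 months and 4 from old animals of 18 to 24 months, with no treatment or transgene in either group. Blood had been washed out by perfusion according to the study's text, and no source used here states that the libraries are separate animals. The p-values therefore speak for the spread between these libraries, which may be technical. The labels give no sex for these libraries. Xist, which is transcribed from the inactive X chromosome, was at 22.5 to 43.5 FPKM in all of them, and Ddx3y, Uty, Kdm5d and Eif2s3y of the Y chromosome were listed at 0. FPKM, the unit deposited, is the number of sequenced fragments scaled to the exon length of a gene and to the total of the library. Levels can thus be compared between genes only as far as these lengths hold.

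Corticosterone, the main glucocorticoid of the mouse, acts through a pair of nuclear receptors. The mineralocorticoid receptor, encoded by Nr3c2, binds it with higher affinity than the glucocorticoid receptor, encoded by Nr3c1. In the pituitary the hormone closes the stress axis by feedback on corticotrophs, the cells that secrete ACTH, and receptors with bound hormone act on target genes through a palindromic DNA element. Whole tissue averages over hormone-secreting, stem, stromal, endothelial and immune cells, so fewer cells of a type and less RNA per cell cannot be told apart.

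Between 15042321 and 20429604 fragments were assigned per young library (median 17741027.5) and between 16098530 and 19272104 per old library (median 17988581). The libraries showed the hormone transcripts of the gland. Gh, the growth hormone gene, had a young mean of 62323 ± 5846 FPKM and an old mean of 24327 ± 3157 FPKM (SD, n = 4 per age), and Lhb, the luteinizing hormone beta gene, was also lower in old pituitary. Among the 23498 genes tested with limma on log2(FPKM + 0.1), 1.86% were higher and 0.472% lower in old pituitary at an adjusted p under 0.05, together 2.33%. The median log2 fold change over these genes was 0.15 on the deposited scale and 0.01 after median-of-ratios (RLE) scaling, which sets the typical gene near 0. The old libraries also held more macrophage transcripts, since for all 6 macrophage markers the lowest old library exceeded the highest young one, as for 13.4% of all genes tested. They summed to 20.9 to 36.7 FPKM in the young libraries and to 46.2 to 62.8 FPKM in the old ones, and 1 of the 6, Lyz2, passed the test.

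None of the 8 genes of the glucocorticoid system that entered the test differed between the ages at an adjusted p under 0.05 in limma, against 2.33% of all genes tested. Hsd11b1 and Klf9 had an unadjusted p under 0.05, both lower in old pituitary, against 3.79% of all genes tested that were lower by this measure. With voom on fragments both passed the test, though the fragments of Klf9 came from an exon length that gave no whole numbers. Hsd11b1 and Klf9 were also the genes for which every old library lay below every young one, as for 2.06% of all genes tested. On the deposited scale 6 of the 8 fold changes were below 0, their median was -0.14 against 0.15 for all genes tested, and 7 of the 8 lay below that median of all genes.

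**Figure D1:**
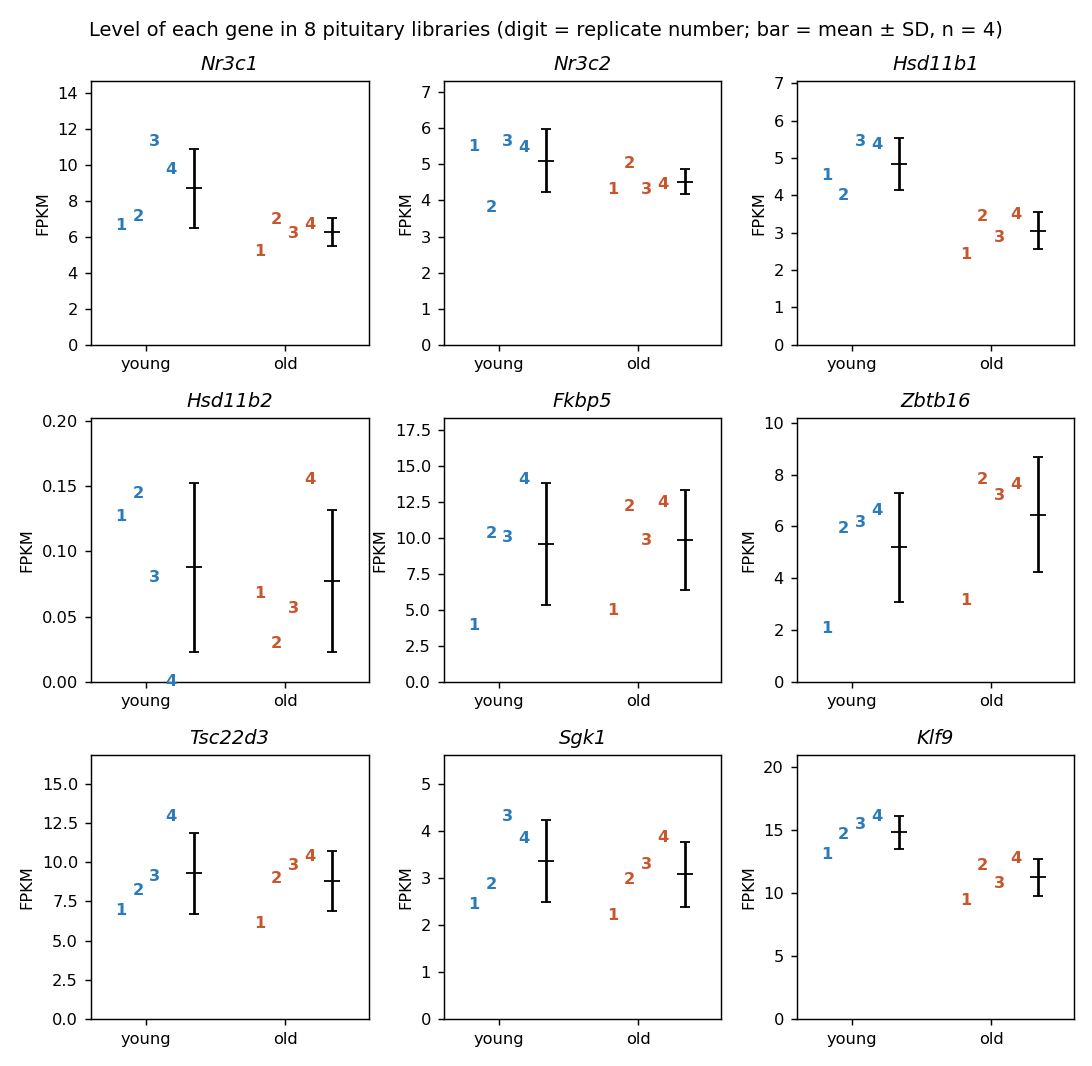
Level of the 9 genes in FPKM on a linear axis from 0, separate for each gene, in young and old pituitary. Digits are libraries, named by replicate number, and black bars give the mean ± SD (n = 4). Hsd11b1 and Klf9 are lower in all 4 old libraries than in all 4 young ones, and the libraries numbered 1 lie lowest at both ages for Fkbp5 and Zbtb16.

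The order of the levels over the 8 libraries was led by Klf9 with a mean of 13.0 FPKM. It was followed by Fkbp5 (9.73 FPKM), Tsc22d3 (9.04 FPKM), Nr3c1 (7.47 FPKM), Zbtb16 (5.82 FPKM), Nr3c2 (4.81 FPKM), Hsd11b1 (3.95 FPKM) and Sgk1 (3.23 FPKM), with Hsd11b2 last at 0.0824 FPKM. Neighbours in this order overlapped in their ranges down to Sgk1. Each was above the next in 5 to 7 of the 8 libraries, so that their order was not fixed, while Sgk1 exceeded Hsd11b2 in all 8. The places of Klf9, Fkbp5 and Nr3c1 also depend on the exon length used. Their annotated lengths (4815, 9468 and 7684 bases) gave no whole numbers of fragments, whereas shorter lengths did (3263, 6363 and 7425 bases). On the annotated lengths their FPKM would be lower, and their places could change.

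Nr3c1, the glucocorticoid receptor gene on chromosome 18 of GRCm38 from 39410545 to 39519421 (minus strand), was at 6.64, 7.14, 11.3 and 9.74 FPKM in young replicates 1 to 4 and at 5.17, 6.98, 6.18 and 6.67 FPKM in old replicates 1 to 4. Young replicates 2, 3 and 4 were above every old library, replicate 2 by a small margin, whereas young replicate 1 lay within the old range. The means were 8.69 ± 2.19 and 6.25 ± 0.791 FPKM (SD, n = 4 per age), and the log2 fold change of -0.45 (standard error, SE, 0.19, limma adjusted p = 0.23) had a 95% interval from -0.90 to 0.01.

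Nr3c2, the mineralocorticoid receptor gene on chromosome 8 from 76899442 to 77245012 (plus strand), was at 5.51, 3.80, 5.63 and 5.47 FPKM in the young and at 4.30, 5.04, 4.30 and 4.45 FPKM in the old replicates. A single young library, replicate 2, was below all the others, and the remaining young libraries were above the old ones. The log2 fold change was -0.16 (SE 0.15, limma adjusted p = 0.57), with a 95% interval from -0.50 to 0.18. The balance of both receptors was read as the ratio of their FPKM within each library, which no scaling between libraries alters. Nr3c1 exceeded Nr3c2 by 1.20, 1.88, 2.00 and 1.78 times in the young and by 1.20, 1.39, 1.44 and 1.498 times in the old replicates. The ratio was above 1 in all libraries, and its difference between the ages, -0.29 on the log2 scale, was within the spread (exact permutation test over the 70 splits, two-sided, p = 0.14, where 0.029 is the smallest p possible). Without young replicate 1 the difference was -0.45, and every remaining young ratio exceeded every old one (p = 0.029 in the exact two-sided permutation test, which 3 against 4 libraries cannot go below). Leaving out any of the 7 other libraries gave -0.33 to -0.21, with p of 0.14 to 0.31 in the same exact permutation test.

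Hsd11b1 encodes the enzyme that regenerates active corticosterone from its inert 11-keto form inside cells. The gene lies on chromosome 1 from 193221634 to 193264075 (minus strand). Its level was 4.54, 4.00, 5.43 and 5.38 FPKM in the young and 2.43, 3.42, 2.88 and 3.48 FPKM in the old replicates. No old library reached the lowest young one. The means of 4.84 ± 0.690 and 3.05 ± 0.498 FPKM (SD, n = 4 per age) stood in a ratio of 0.631, from 1478 fragments in young and 930 in old pituitary. The log2 fold change of -0.65 (SE 0.16, limma adjusted p = 0.075) did not pass the test on the deposited scale. After RLE scaling it was -0.80 (adjusted p = 0.031 from limma) and passed, as it did under 7 other alternatives.

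The reverse enzyme, which protects the mineralocorticoid receptor by inactivating corticosterone, is encoded by Hsd11b2 on chromosome 8 from 105518755 to 105523988 (plus strand). It was at 0.126, 0.145, 0.0798 and 0 FPKM in the young and at 0.0675, 0.0294, 0.0564 and 0.155 FPKM in the old replicates, and the ages overlapped. This gene had too low a mean for the test. A total of 11 fragments in young and 10 in old pituitary give a ratio of 0.904 with an exact 95% interval of 0.344 to 2.34 for counting error only, so a difference was not detectable at this depth. Hsd11b1 exceeded Hsd11b2 in every library.

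Markers of 2 further cell groups had fold changes mostly below 0, like 6 of the 8 genes tested, Hsd11b1, Nr3c1 and Klf9 among them. All 5 stromal markers had a fold change below 0. Their summed level was 61.8 to 75.2 FPKM in the young libraries and 43.2 to 72.7 FPKM in the old ones. The collagen gene Col1a1 passed the test, against 0.472% of all genes tested that were called lower. Of the 5, 2 were lower at an unadjusted p under 0.05 in limma, against 3.79% of all genes. Of 6 markers of stem and folliculostellate cells, 5 had a fold change below 0 and none passed the test in limma (2 lower at an unadjusted p under 0.05, against 3.79% of all genes), with a summed level of 24.6 to 33.3 FPKM in the young libraries and 18.0 to 25.6 FPKM in the old ones. No marker of either list was at 0 in any library. The part of these cells in the levels of the 3 genes was not tested.

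Promoter windows that RefSeq gives for GRCm38.p6, from 250 bases before to 50 after a start, were searched on both strands for the receptor element. Windows were given for 6 of the 9 genes, 13 windows in all. The full palindrome was taken as the hexamer AGAACA, 3 bases of any kind and the hexamer TGTTCT, and the core as GNACA, 3 bases of any kind and TGTNC, so that each palindrome holds a core and 2 hexamers. The core occurs in 0.475% of the 32851 windows of all genes and the single hexamer in 19.0%. The palindrome, added after the matches had been seen, occurs in 3 of the 32851 windows. Among the 13 windows the core was met once, in 1 of the windows of Sgk1, as part of a full palindrome. This window is shown with 2 others, Tsc22d3 for a hexamer alone and Fkbp5 because, of the 8 genes tested, it had the widest fold range within either age. Capitals mark the core, the palindrome and the hexamers, each printed 5′ to 3′ on the strand of the gene.
Sgk1 (chr10:21993640-21993939, plus strand): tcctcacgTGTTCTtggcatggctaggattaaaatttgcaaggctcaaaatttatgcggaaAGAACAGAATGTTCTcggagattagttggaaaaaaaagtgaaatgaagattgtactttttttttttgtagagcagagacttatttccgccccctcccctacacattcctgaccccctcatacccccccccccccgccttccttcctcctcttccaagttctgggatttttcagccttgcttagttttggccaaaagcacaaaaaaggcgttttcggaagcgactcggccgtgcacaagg
Tsc22d3 (chrX:140600473-140600772, minus strand): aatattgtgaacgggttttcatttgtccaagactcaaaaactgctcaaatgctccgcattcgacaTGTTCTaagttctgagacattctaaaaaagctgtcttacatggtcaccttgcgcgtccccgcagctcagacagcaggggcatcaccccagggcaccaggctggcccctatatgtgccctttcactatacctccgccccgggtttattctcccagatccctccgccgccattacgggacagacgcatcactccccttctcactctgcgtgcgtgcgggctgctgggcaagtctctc
Fkbp5 (chr17:28486100-28486399, minus strand): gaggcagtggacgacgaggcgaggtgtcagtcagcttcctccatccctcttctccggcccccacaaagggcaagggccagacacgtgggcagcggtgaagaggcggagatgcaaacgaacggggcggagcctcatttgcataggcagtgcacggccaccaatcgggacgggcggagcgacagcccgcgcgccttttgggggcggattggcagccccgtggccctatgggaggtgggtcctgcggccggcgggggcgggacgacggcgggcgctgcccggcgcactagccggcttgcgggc
In the Sgk1 window shown, the palindrome spans bases -189 to -175 from its start, 1 of several starts given for Sgk1. A further hexamer begins at base -242. Hexamers without a core also lie in the Sgk1 windows that begin at 21881934 (base -195) and at 21991973 (base -13). The hexamer of Tsc22d3 begins at base -185. The windows of Fkbp5, Klf9, Hsd11b1 and Nr3c2 held none of these letters. A match says nothing of receptor binding in these libraries, and elements farther from the start were not searched.

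Among the hormone-responsive genes Fkbp5, Zbtb16, Tsc22d3 and Sgk1 had overlapping ages, and Klf9 did not. Fkbp5 encodes a co-chaperone that lowers the affinity of the glucocorticoid receptor for its hormone and is itself induced by the hormone. It lies on chromosome 17 from 28399094 to 28517527 (minus strand). Its level was 3.92, 10.3, 10.04 and 14.1 FPKM in the young and 4.94, 12.2, 9.86 and 12.5 FPKM in the old replicates. Replicate 1 was the lowest library at both ages, by a factor of 2.56 to the next-lowest young library and 2.00 to the next-lowest old one, and the other libraries of both ages overlapped. The log2 fold change of 0.09 (SE 0.45, limma adjusted p = 0.93) had a 95% interval from -0.95 to 1.13, and its sign turned after RLE scaling (-0.06) and without young replicate 1 (-0.29).

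Zbtb16 encodes PLZF, a zinc finger repressor, and is induced by glucocorticoids in many tissues. Its gene on chromosome 9, from 48654297 to 48836222 (minus strand), also had its lowest value in replicate 1 at both ages. The level was 2.07, 5.94, 6.16 and 6.61 FPKM in the young and 3.14, 7.83, 7.199 and 7.62 FPKM in the old replicates, from 188 to 765 fragments a library. Replicate 1 again lay apart at both ages, by 2.87 times below the next-lowest young and 2.29 times below the next-lowest old library, and the 3 other old libraries were above all young ones. The log2 fold change was 0.35 (SE 0.45, limma adjusted p = 0.68). When both libraries numbered 1 were left out, a choice made after the values had been seen, it was 0.27 with a standard error of 0.11 (adjusted p = 0.32 from limma), and without young replicate 1 alone it was -0.04.

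Tsc22d3 encodes GILZ, a leucine zipper protein that carries part of the anti-inflammatory action of glucocorticoids. It lies on chromosome X from 140539528 to 140600659 (minus strand) and was at 6.94, 8.19, 9.11 and 12.9 FPKM in the young and 6.07, 8.96, 9.77 and 10.4 FPKM in the old replicates. The ages overlapped, with a log2 fold change of -0.07 (SE 0.24, limma adjusted p = 0.89) and a 95% interval from -0.62 to 0.48.

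Sgk1, a kinase gene that both receptors induce, lies on chromosome 10 from 21882184 to 21999903 (plus strand). Its level was 2.43, 2.87, 4.32 and 3.85 FPKM in the young and 2.20, 2.98, 3.30 and 3.86 FPKM in the old replicates. The ages overlapped, with old replicate 1 below and young replicate 3 above the range of the other age. The log2 fold change was -0.12 (SE 0.23, limma adjusted p = 0.80), with a 95% interval from -0.65 to 0.42. For Tsc22d3 and Sgk1, too, replicate 1 was the lowest library of each age.

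Klf9, a Krüppel-like transcription factor gene that responds to glucocorticoids and to thyroid hormone, lies on chromosome 19 from 23141226 to 23168134 (plus strand). It was at 13.1, 14.6, 15.4 and 16.1 FPKM in the young and at 9.42, 12.2, 10.7 and 12.7 FPKM in the old replicates. Unlike the other hormone-responsive genes of the set, its groups did not overlap, although the highest old and the lowest young library were close. The means were 14.8 ± 1.31 and 11.3 ± 1.48 FPKM (SD, n = 4 per age), and the log2 fold change was -0.40 (SE 0.13, limma adjusted p = 0.13). Against the typical gene, after RLE scaling, it was -0.55 (adjusted p = 0.0497 from limma), and it was -0.54 after TMM scaling (adjusted p = 0.052 from limma).

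**Figure D2:**
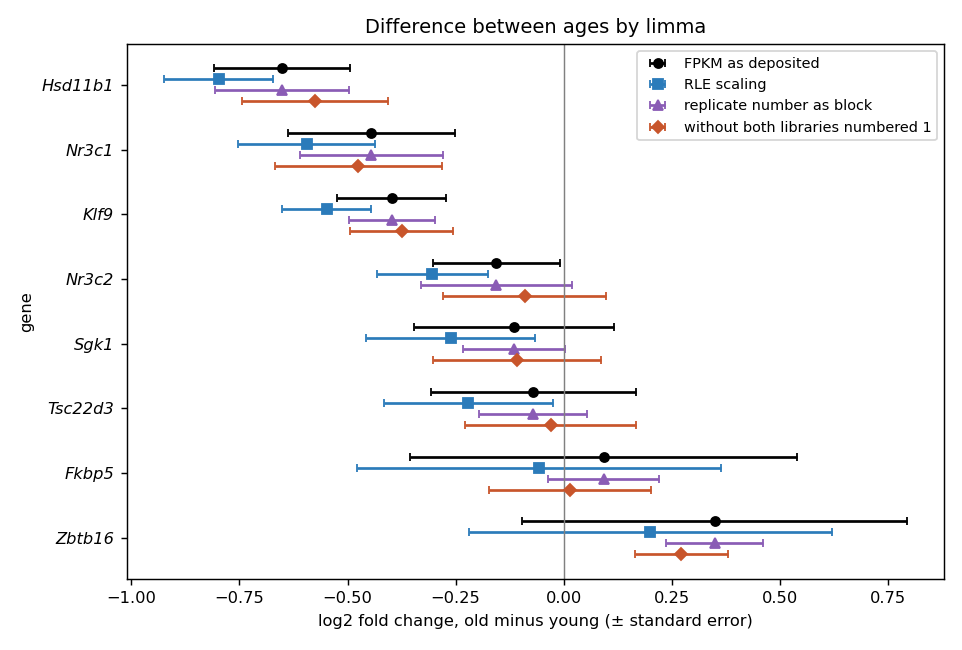
Log2 fold change from young to old of the 8 genes tested, from limma on log2(FPKM + 0.1), with bars of 1 standard error, for the deposited FPKM, after RLE scaling, with the replicate number as a block and without both libraries numbered 1. Hsd11b1, Nr3c1, Klf9, Nr3c2, Sgk1 and Tsc22d3 lie below 0 in all 4 settings shown. Fkbp5 turns its sign after RLE scaling, and the bars of Fkbp5 and Zbtb16 shorten in the last 2 settings.

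Library 1 of each age was thus the lowest for 6 of the 8 genes tested, namely Nr3c1, Fkbp5, Tsc22d3, Sgk1, Zbtb16 and Klf9. Over all 23498 genes tested, 16.0% had their lowest young value in young replicate 1 and their lowest old value in old replicate 1. After RLE scaling the count was also 6 of 8, against 9.13% of all genes. The replicate numbers are not said to mark a shared day, cage or batch, and this count was made after the values had been seen.

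Other genes induced by glucocorticoids showed the same low libraries in part. Of 24 such genes, 10 had their lowest value in library 1 at both ages (8 after RLE scaling). Sult1a1, a sulfotransferase gene, was at 1.78, 7.10, 3.70 and 5.37 FPKM in the young and 3.83, 6.9995, 6.16 and 7.51 FPKM in the old replicates. Fam107a, which encodes an actin-binding protein, was at 2.52, 5.20, 3.90 and 6.47 FPKM in the young and 2.13, 4.33, 4.16 and 4.59 FPKM in the old replicates. In both genes library 1 was set apart from the next-lowest library by more than 1.5-fold at each age. Per1, a clock gene with glucocorticoid-responsive elements, did not follow, since its lowest young library was replicate 2.

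**Figure D3:**
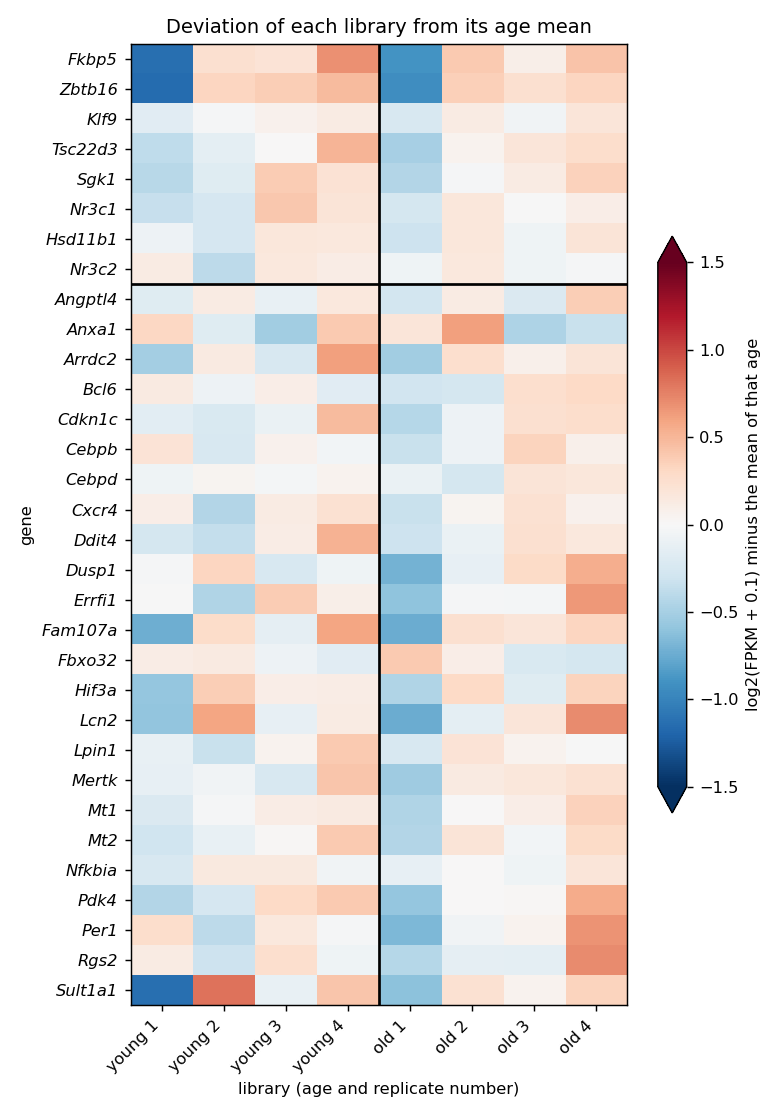
Deviation of log2(FPKM + 0.1) in each library from the mean of its age, as colour, for the 8 genes tested (above the line) and 24 other glucocorticoid-induced genes (below the line). Blue is lower and red higher. The deepest blue in Fkbp5 and Zbtb16 is in young 1 and old 1, where Sult1a1 and Fam107a are low as well, while Anxa1 and Fbxo32 are not.

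Likeness between genes was described by Pearson's r of their deviations from the age means over the 8 libraries, with no test, since the 2 low libraries weigh heavily in it. Fkbp5 and Zbtb16 were the most alike within the set over the 8 libraries (r = 0.98), followed by Fkbp5 and Klf9 (r = 0.91). This order rests on the libraries numbered 1. Without them Nr3c1 and Nr3c2 were the most alike, with r of 0.96 against 0.52 over all libraries. Of the young libraries left, replicate 2 was the lowest for both receptor genes, and r was not taken without it. Fkbp5 and Zbtb16 had r = 0.91 and Fkbp5 and Klf9 r = 0.81 without the libraries numbered 1. Nr3c2 had r of -0.02 to Fkbp5 and -0.07 to Zbtb16, but 0.42 and 0.72 without the libraries numbered 1, so that these low values rest on them. Among 14587 genes averaging 1 FPKM or more, those most like Fkbp5 were Klf15 (r = 0.99), a Krüppel-like factor gene, Glul (r = 0.99), the glutamine synthetase gene, and Slc39a14 (r = 0.98), a zinc and iron transporter gene. Without the libraries numbered 1 these were 0.94, 0.83 and 0.78. Slc39a14 and Glul were also among the 3 genes most like Zbtb16 (r of 0.99 and 0.98, and 0.88 and 0.71 without these libraries). With only 8 libraries, the best match among this many genes was above 0.98 for each of the 8 genes, so a high r was found for every one of them. Klf15 was at 3.44, 6.84, 7.28 and 10.01 FPKM in the young and 3.25, 6.69, 5.50 and 6.17 FPKM in the old replicates. Glul was at 33.7, 53.6, 52.1 and 62.4 FPKM in the young and 34.8, 54.4, 53.9 and 53.7 FPKM in the old replicates. In both, replicate 1 was the low library at either age.

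Over all genes averaging 1 FPKM or more, 44 of 14588 were at least 1.5-fold lower in library 1 than in any other library of the same age at both ages, and 9 were higher by this factor. The 44 include small RNA genes, and also Zbtb16, Fkbp5, Klf15, Per2, Sult1a1, Slc39a14, Glul, Fam107a and the endothelial receptor gene Kdr. They also hold genes outside the lists used here, such as Klk1b21, Klk1b26, Klk1b16, Lrg1, Fibin, Ccl17, Ctgf, Slc43a3, Tsku, Sema7a, Doc2b and Tmprss2. Some other transcripts were also low in these libraries. The summed level of 5 red blood cell markers was 13.0, 14.7, 76.9 and 110 FPKM in the young and 15.9, 123, 124 and 89.3 FPKM in the old replicates, low also in young replicate 2, where Fkbp5 was not low. The summed level of 6 endothelial markers was 62.8 FPKM in young replicate 1 against 67.0 to 89.6 FPKM in the other young libraries, and 65.7 FPKM in old replicate 1 against 75.5 to 92.2 FPKM in the other old ones. Arntl, a core clock gene, was at 2.39, 1.29, 1.15 and 1.29 FPKM in the young and 1.59, 0.935, 1.29 and 1.91 FPKM in the old replicates. It was highest in young replicate 1, but old replicate 1 lay within the range of the other old libraries. Of 14 clock genes, 3 were lowest in library 1 at both ages, against 16.0% of all genes tested. The hour of sampling is not in the sources used here, and the part of blood, vessels and clock phase in the low levels was not tested.

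The other genes of the pathway were taken from lists made for this purpose. Of the 24 further glucocorticoid-induced genes, 1 rose and none fell in limma, against 1.86% and 0.472% of all genes tested. At an unadjusted p under 0.05, 4 were higher, near the 18.0% of all genes tested that were higher by this measure, and 2 were lower, against 3.79% of all genes. Their median log2 fold change was -0.08 against 0.15 for all genes tested. The gene that rose was Angptl4, which encodes an inhibitor of lipoprotein lipase. Its mean was 0.737 ± 0.0977 FPKM at the young and 1.56 ± 0.358 FPKM at the old age (SD, n = 4 per age). The log2 fold change came to 0.97 (SE 0.17, limma adjusted p = 0.037). Mt1, a metallothionein gene, was at 36.7 ± 4.01 FPKM in the young and 22.8 ± 4.995 FPKM in the old libraries (SD, n = 4 per age), with every old library below every young one and an adjusted p of 0.086 from limma. Mertk, a phagocyte receptor gene that macrophages express, was at 0.602 ± 0.149 and 1.17 ± 0.277 FPKM (adjusted p = 0.086 from limma), and the macrophage markers were higher in the old libraries as well. Errfi1, a feedback inhibitor of the EGF receptor, was at 10.9 ± 2.52 and 6.16 ± 2.28 FPKM (adjusted p = 0.15 from limma).

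**Figure D4:**
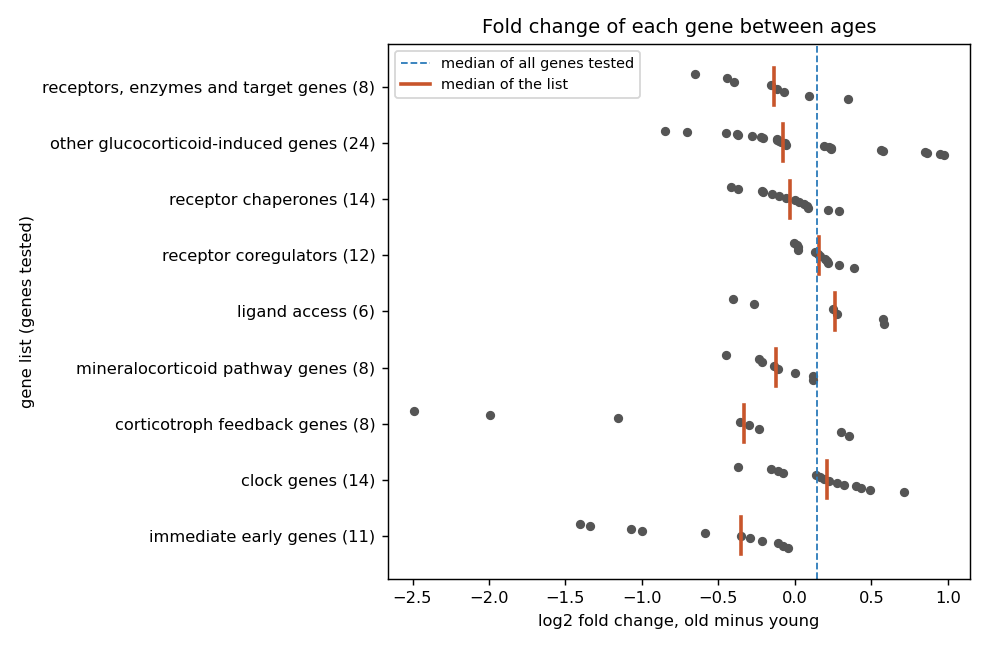
Log2 fold change from young to old (limma, log2(FPKM + 0.1), deposited scale) of every gene tested in 9 lists, 1 point a gene, with the number of genes tested beside each list. The orange bar is the median of a list and the dashed line the median of all genes tested, 0.15. Below that line lie the medians of the receptors, enzymes and target genes (-0.14) and of the immediate early genes (-0.35). So do those of the corticotroph feedback (-0.33), mineralocorticoid pathway (-0.13), other glucocorticoid-induced (-0.08) and chaperone genes (-0.03). Those of the ligand access (0.26) and clock genes (0.21) lie above it, and the coregulators lie on it.

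Hormone-free receptors are held by chaperones of the HSP90 machinery. None of 14 such genes passed the test in limma (1 higher at an unadjusted p under 0.05, a share below the 18.0% of all genes), and their median log2 fold change was -0.03. Ppp5c, a phosphatase of this complex, was at 11.1 ± 0.571 FPKM in the young and 13.5 ± 1.55 FPKM in the old libraries (adjusted p = 0.18 from limma), and Bag1, a cochaperone, at 33.1 ± 2.55 and 38.4 ± 1.76 FPKM (adjusted p = 0.23 from limma). The inducible chaperones Dnajb1 and Dnaja1 were at 12.1 ± 2.67 and 9.14 ± 2.44 FPKM, and at 12.6 ± 4.00 and 9.43 ± 1.53 FPKM, with adjusted p of 0.36 and 0.41 from limma. Of 12 coregulator genes, which pass the signal of the receptor to chromatin, none passed in limma (3 higher at an unadjusted p under 0.05, against 18.0% of all genes). The median of the coregulators, 0.16, was close to that of all genes. Ncoa3, a steroid receptor coactivator, was at 3.85 ± 0.405 and 5.06 ± 0.306 FPKM (adjusted p = 0.097 from limma).

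Genes that set how much hormone reaches the receptor also stayed short of the threshold in limma, with 0 of 6 called and 1 higher at an unadjusted p under 0.05, close to the 18.0% of all genes. The latter was Abcb1a, a steroid-exporting pump of vessel walls, at 0.951 ± 0.166 FPKM in the young and 1.47 ± 0.216 FPKM in the old libraries (log2 fold change 0.58, adjusted p = 0.088 from limma). H6pd, which supplies the enzyme of Hsd11b1 with NADPH, was at 7.89 ± 0.366 and 9.68 ± 1.78 FPKM (adjusted p = 0.32 from limma), with overlapping groups. Serpina6, the gene of the corticosteroid-binding globulin of plasma, was listed at 0 in all libraries. None of 8 genes of the mineralocorticoid pathway passed in limma or had an unadjusted p under 0.05. Their median was -0.13, and all 8 lay below the median of all genes. The sodium channel subunit gene Scnn1b was at 6.05 ± 0.385 and 5.51 ± 0.623 FPKM (adjusted p = 0.51 from limma).

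Genes of the feedback loop in corticotrophs gave no call in limma among 8, with 3 lower at an unadjusted p under 0.05, against 3.79% of all genes. The 3 were Crhr1, Nr4a2 and Nr4a3, the Nr4a genes being given below with the immediate early genes. Pomc, the ACTH precursor gene, varied widely, at 4173, 1668, 1483 and 3124 FPKM in the young and 2893, 2372, 3265 and 3852 FPKM in the old replicates. Crhr1, the receptor for the hypothalamic releasing hormone, was at 2.67 ± 0.429 and 2.04 ± 0.163 FPKM (log2 fold change -0.36, adjusted p = 0.18 from limma). Young replicate 1, with the lowest Fkbp5 of all libraries, had the highest Pomc, but old replicate 1 did not stand out in Pomc among the old libraries.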

How the data were processed

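Whole-pituitary mRNA was sequenced by the authors in paired-end mode. The authors used STAR (version 2.6.1a) for alignment to GRCm38 and featureCounts for exons of Ensembl genes. The authors computed FPKM with edgeR (version 3.28.1). Neither the Ensembl release nor the strand setting is given in the sources used. The deposited values are FPKM, 1 list per library. The main test was therefore limma (version 3.58.1, R 4.3.3) on log2(FPKM + 0.1), age as the only term, over the 23498 genes averaging 0.1 FPKM or more, with Benjamini-Hochberg adjustment over all of them and calls at an adjusted p under 0.05. Fold changes on this scale understate those of low genes. The fit was tested on simulated data.

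Fragments were computed back from FPKM with GENCODE M21 exon lengths. Of the low values, 90.3 to 91.4% in a library came out whole (tolerance 0.01). For Nr3c1, Fkbp5 and Klf9 the annotated length gave no whole numbers, so their fragments are not printed. Values from that length still entered the steps that used fragments. A count of 0 allows up to 3 fragments in a library. Since depth differs little between libraries, precision depends on the level of a gene. Fragments, which cover counting error only, entered voom, TMM scaling and the library size without hormone and ribosomal RNA repeat genes.

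The 9 genes and all lists were chosen with earlier results of these data known. Genes named are the 9, up to 4 genes of each list with the smallest adjusted p, and the 3 genes most like each of the 9, though not all are reported. Other genes, such as Fam107a, Sult1a1, Per1, Arntl, Kdr, Serpina6 and Scnn1b, were named after their values had been seen. Alternatives were pseudocounts of 1 and 0.01, 2 other filters, 4 scalings, a mean-variance trend, voom, the block of replicate numbers and leaving out each library in turn. Leaving out both libraries numbered 1, and RLE scaling with the block, were chosen after seeing the data. Python 3.11.15 with numpy 2.4.6, pandas 2.3.3, scipy 1.17.1 and matplotlib 3.10.9 was used beside R.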

Additional observations from a re-analysis of the deposited data

Results flagged for a closer look

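Libraries far from the others of their age were found in 3 of the 20 groups of 4 examined, where chance gives about 1 in 20. For Zbtb16 the lowest library was replicate 1 at both ages, and its gap to the next library took 0.852 of the range in young and 0.865 of the range in old pituitary, above Dixon's critical value for 4 values at the 95% level. For Nr3c2 young replicate 2, at 3.80 FPKM, was set apart by 0.916 of the young range. The values of these libraries are those given for both genes above.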

How the results depend on the processing

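Of the 8 genes tested, Nr3c1, Nr3c2, Hsd11b1 and Klf9 kept their sign under all 21 alternatives. The number of them called higher was 0 throughout. The number called lower went from 0 to 1 (Hsd11b1) with a pseudocount of 1, a filter at 1 FPKM, upper-quartile scaling, TMM scaling, the library size without hormone and rRNA repeat genes and a mean-variance trend, and to 2 (also Klf9) with RLE scaling and voom. Over its alternatives Hsd11b1 had an adjusted p of 0.011 to 0.24 and Klf9 of 0.037 to 0.26 from limma. The lowest of Klf9 came from voom, on fragments from an exon length that gave no whole numbers. Fkbp5 changed sign with RLE (-0.058, also with the replicate block), upper-quartile (-0.056), TMM scaling (-0.049) and the reduced library size (-0.042). It also did so without young replicate 1 (-0.29), old replicate 2 (-0.04) or old replicate 4 (-0.05). Leaving out 1 library also turned Zbtb16 (-0.038, young replicate 1), Sgk1 (0.01, young replicate 3, and 0.032, old replicate 1) and Tsc22d3 (0.10, young replicate 4 or old replicate 1). Leaving out 1 library gave at the other end 0.39 for Fkbp5 and 0.66 for Zbtb16 (old replicate 1), and -0.20 for Tsc22d3 and -0.25 for Sgk1 (young replicate 1). The cause was not tested. Over all genes, 436 were higher and 111 lower. These counts became 211 and 220 with RLE, 213 and 217 with upper-quartile and 206 and 198 with TMM scaling, 212 and 189 with the reduced library size, and 1358 and 335 with voom. The number higher was 689 with a pseudocount of 1, 263 without a filter, 796 with the filter at 1 FPKM and 705 with the trend. Without 1 library they were 64 to 327 and 21 to 163, with fewer samples. Without both libraries numbered 1 they were 20 and 7. With the replicate block, with or without RLE scaling, 4 were higher and 0 lower (4373 genes with an unadjusted p under 0.05, 3532 with RLE). Over all genes tested, libraries of the same number did not deviate together (r of -0.04 to 0.04). This r cannot show whether the numbers pair libraries for a smaller set of genes, which was not tested. The block called none of the 8 genes and gave -0.29 (p = 0.12, exact permutation of signs) for the ratio of Nr3c1 to Nr3c2. This is the smallest p that 4 replicate numbers allow, so the permutation of signs could not pass 0.05. That ratio ranged from -0.45, without young replicate 1, to -0.21 when 1 library was left out. At this depth genes near the level of Hsd11b2 could not be compared.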

Other observations

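Immediate early genes, which cells switch on within minutes of a stimulus, had fold changes below 0 in 11 of 11 genes tested, with a median of -0.35 against 0.15 for all genes. None passed the test in limma (5 lower at an unadjusted p under 0.05, against 3.79% of all genes). In 3 of the 11, Egr2, Atf3 and Arc, every old library lay below every young one, as for 2.06% of all genes tested. Egr2 was at 2.52 ± 1.11 FPKM in the young and 0.887 ± 0.157 FPKM in the old libraries (SD, n = 4 per age, adjusted p = 0.054 from limma) and Atf3 at 16.9 ± 3.64 and 6.62 ± 2.92 FPKM (adjusted p = 0.054 from limma). The orphan receptor genes Nr4a2 and Nr4a3, which respond to releasing hormone in corticotrophs, were at 37.5 ± 25.6 and 9.65 ± 7.64 FPKM and at 17.7 ± 15.1 and 3.30 ± 3.64 FPKM (adjusted p of 0.14 and 0.18 from limma). The summed level of the immediate early genes was 394, 497, 427 and 365 FPKM in the young and 267, 308, 372 and 457 FPKM in the old replicates, so young replicate 1 was not the lowest of its age.

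Relatives of the hormone-responsive genes gave no call in limma among 21 tested (7 higher and 1 lower at an unadjusted p under 0.05, against 18.0% and 3.79% of all genes), with a median log2 fold change of 0.23. Tsc22d4, a relative of Tsc22d3, was at 3.69 ± 0.266 FPKM in the young and 5.04 ± 0.459 FPKM in the old libraries (SD, n = 4 per age, adjusted p = 0.069 from limma), and every old library lay above every young one, as for 13.4% of all genes tested. Sgk3, a relative of Sgk1, was at 0.507 ± 0.0478 and 0.681 ± 0.0714 FPKM (adjusted p = 0.12 from limma), also without overlap. Of 14 clock genes, none had an unadjusted p under 0.05 in limma. Per2 was at 1.05, 2.28, 2.90 and 3.27 FPKM in the young and at 2.34, 4.83, 4.00 and 3.96 FPKM in the old replicates, lowest in replicate 1 at both ages.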
